A study of Mus musculus with 80 samples.

Results

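The regions described here are 479 stretches of 500 bp in which mouse embryonic stem cells (ESCs) without TET enzymes stayed more methylated than wild-type ESCs after 96 h in 2i. They were taken from 39358 autosomal tiles that had 20 or more methylation calls at 3 or more cytosine positions in each of the 15 TET libraries, and make up 1.22% of them. A tile was chosen when the mean of its replicates was 50% or more in serum in both lines and when, at 96 h, TET TKO lay 30 percentage points or more above TET WT. Of the 7100 tiles that met the serum minimum the chosen tiles were 6.75%, and the remaining 6621, called other methylated tiles below, serve for comparison.

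Reduced representation bisulfite sequencing (RRBS), which reads cytosine methylation in CpG-rich restriction fragments, was carried out as ESCs moved from serum to 2i. Serum medium held LIF, and 2i was N2B27 with LIF, the MEK inhibitor PD0325901 and the GSK3 inhibitor CHIR99021. TET WT and TET TKO, of the mixed C57/129/FVB background, were sampled in serum and at 48, 96 and 168 h. TKO carried the genotype TET1/2/3-/-, a constitutive deletion. The wild-type line E14, UHRF1 WT and UHRF1 KO (UHRF1-/-, on E14 background, its deletion induced with tamoxifen before the time course) were sampled in serum and at 24, 48, 72, 96 and 168 h. Each group had 2 libraries except TET WT at 168 h and UHRF1 WT in serum, which had 1 usable library each. Bisulfite sequencing of DNA pulled down with an antibody to H3K9me2, a repressive histone mark (ChIP-BS), gave 2 bound and 2 input libraries of E14 in each of serum and 2i. The labels give no time for this 2i, which the study describes as long-term. Each knockout genotype was represented by 1 line, so line and genotype cannot be told apart, and the deletions themselves were not checked here. The labels do not say whether replicates were separate cultures, so p-values measure only the spread between these libraries, which may be technical.

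TET proteins oxidise methylated cytosine to hydroxymethylcytosine and further forms, which can be lost through base excision repair or by dilution as DNA is copied. UHRF1 recruits the maintenance methyltransferase DNMT1 to hemimethylated DNA behind the replication fork, and without this step methylation is diluted with each division. ESCs in 2i are known for losing methylation over most of the genome. Bisulfite sequencing reads methylcytosine and hydroxymethylcytosine alike, so each level below is their sum.

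The TET libraries held 5594622 to 43706248 calls, the E14 libraries 9581412 to 30654219 and the usable UHRF1 libraries 3208182 to 43553751. In a chosen tile the median number of calls per TET library ran from 30 (TET TKO, 96 h, replicate 2) to 233 (TET TKO, 168 h, replicate 1). A tile held a median of 10 cytosine positions over both strands, against 9 in the other methylated tiles and 22 in all covered tiles. Positions on 1 read, and copies of 1 molecule, are not independent, so counting errors are larger than the number of calls implies.

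The working name of these tiles, as regions that need TET to lose methylation in 2i, was not borne out by their levels in TKO. All 479 were lower in TKO at 168 h than in TKO serum. The median over the tiles in TKO was 88.6% ± 0.462 in serum, and 2i brought it to 79.0% ± 0.825 by 48 h, then 67.4% ± 2.40 by 96 h and finally 50.8% ± 1.14 by 168 h (mean and SD of the library medians, n = 2). TET WT began at 60.7% ± 0.109 in serum, reached 53.8% ± 0.266 by 48 h and 29.1% ± 1.13 by 96 h, and had 12.8% in its lone library of 168 h. At 168 h the median tile had kept 58.3% of its serum level in TKO and 21.0% in WT. By 168 h WT had kept the smaller share of its serum level in 466 of the 479 tiles (97.3%), and TKO in the other 13. The same was seen in 67.3% of the other methylated tiles and in 89.5% of 2029 tiles that were methylated in TKO serum and low in WT serum. These shares use the serum levels of the rule and carry no test. By 48 h the shares kept in the chosen tiles were alike, with group medians at 88.6% of serum in WT and 89.2% in TKO. In the other methylated tiles WT had kept more, with 97.1% against 89.8% in TKO. The 2029 tiles low in WT serum had 90.8% in WT and 87.8% in TKO.

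**Figure D1:**
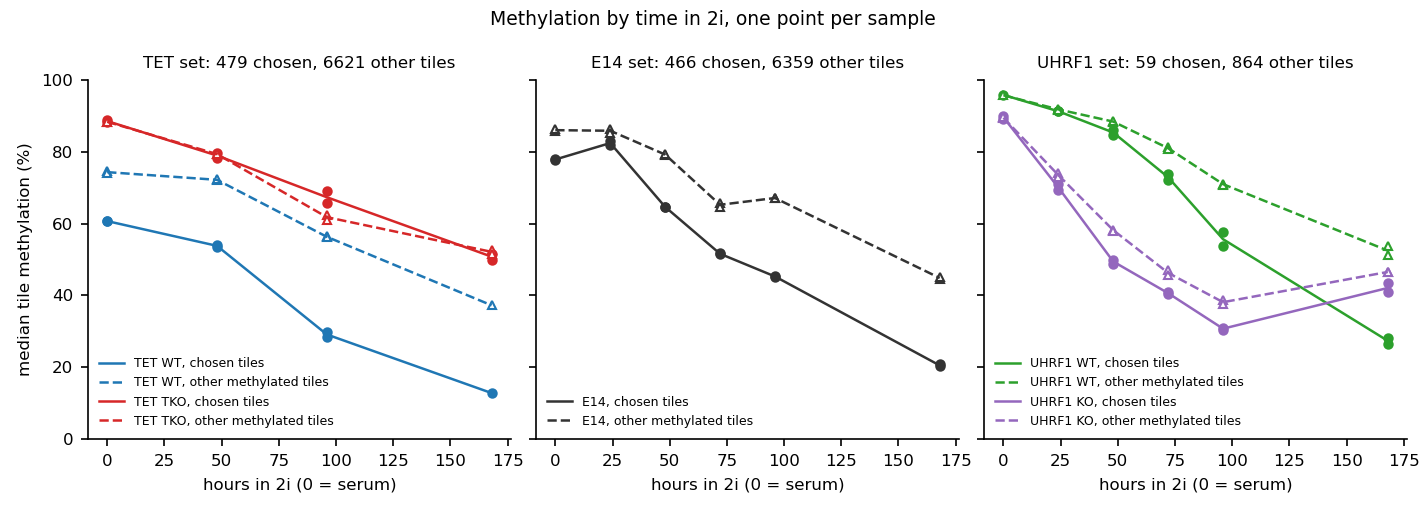
Median methylation (%) over the chosen tiles (filled circles, solid lines) and the other methylated tiles (open triangles, dashed lines) by hours in 2i, with serum at 0. Each point is 1 library and lines join group means. In TET TKO the 2 kinds of tile ended at 50.8% and 52.1%, whereas in TET WT the chosen tiles ended at 12.8% and the other methylated tiles at 37.3%.

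The values that chose the tiles are given as a description only. At 96 h the difference between TKO and WT ran from 30.04 to 70.7 points with a median of 36.1, against 5.02 points in the other methylated tiles. The 3 tiles just inside the threshold, at chr19:44379501-44380000, chr7:51047501-51048000 and chr8:82194001-82194500, differed by 30.04, 30.06 and 30.06 points. The 3 just outside, at chr5:143538001-143538500, chr19:30592501-30593000 and chr10:79354501-79355000, differed by 29.96, 29.96 and 29.95 points. In serum the chosen tiles already differed between the lines, by a median of 26.0 points (quartiles 19.1 and 31.3), and the other methylated tiles by 12.4 points. In TKO serum the chosen and the other methylated tiles had the same median of 88.3% (over tile means), so that the serum gap lay on the side of WT, where the chosen tiles stood at 59.97% and the others at 74.2%. All coordinates are those of build NCBIM37, which the study names for its RRBS reads. Genes, exons, promoters and sequences at these positions were not analysed here.

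The 48 h and 168 h libraries did not enter the choice and allow a test of the same difference. At 48 h 250 of the 479 tiles were called higher in TKO (52.2%) and none lower, where all covered tiles gave 9.85% and the other methylated tiles 7.82%. The 2029 tiles methylated in TKO serum and low in WT serum gave 81.2%, so such calls were not particular to the chosen tiles. A call needed a Benjamini-Hochberg adjusted p under 0.05 in a quasi-binomial fit over all 39358 tiles, with limma's squeezeVar on the dispersions, and a difference of 20 points or more. The median difference at 48 h was 24.2 points in the chosen tiles and 6.25 points in the others. It was of the size already present in serum. Both TKO libraries lay above both WT libraries in 432 of 479 chosen tiles, against 42.0% of all covered tiles and 45.0% of the other methylated tiles. Fewer tiles were called without single libraries of 48 h, with 126 without TKO replicate 2, 150 without TKO replicate 1 and 155 without WT replicate 2, and 40 were called when only the groups compared entered the fit.

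At 168 h 422 tiles were called higher in TKO (88.1%) and none lower, where all covered tiles gave 11.9% and the other methylated tiles 29.3%. The 2029 tiles methylated in TKO serum and low in WT serum gave 79.2%, so these calls were not particular to the chosen tiles either. The median difference was 36.5 points, against 13.5 points in the other methylated tiles. Pooled over calls it was 37.0 points, against 28.3 points in the 2029 tiles methylated in TKO serum and low in WT serum. Both TKO libraries lay above the lone WT library in 474 of 479 tiles (all covered tiles 58.6%, other methylated tiles 72.0%). Calls at both times were made for 242 chosen tiles and at neither time for 49. Joint calls were not counted over all covered tiles or the other methylated tiles. The counts of 242 and 49 therefore have no background. The WT group at 168 h is 1 library, assumed to vary like the other groups. This may not hold, since TKO at 168 h varied most among the TET groups with 2 libraries. The mean chi-square per tile between its replicates was 2.06, against 1.34 to 1.61 in the others. With only the groups compared in the fit 0 tiles were called at 168 h. In the fit over all TET libraries 452 chosen tiles had an unadjusted p under 0.05 (3308 of 6621 other methylated tiles and 11457 of all 39358).

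**Figure D2:**
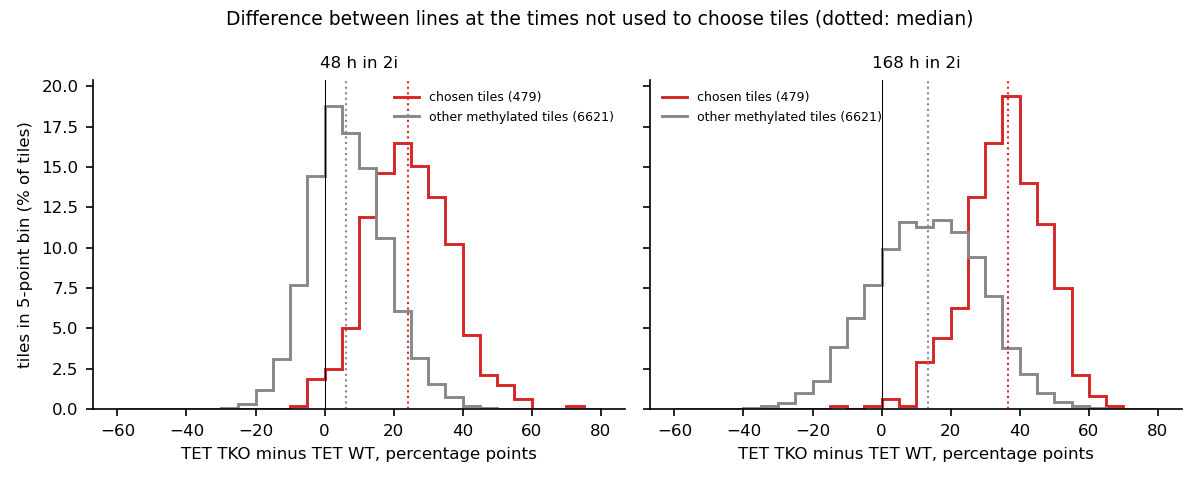
Percent of tiles per bin of 5 points of the difference TET TKO minus TET WT (x axis, percentage points) at 48 h and 168 h, for the 479 chosen tiles and the 6621 other methylated tiles. Dotted lines mark the medians, which lay at 24.2 and 6.25 points at 48 h and at 36.5 and 13.5 points at 168 h.

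Of the chosen tiles 22 differed by 10 points or less in serum, and by a median of 33.1 points at 96 h. Of these 22, 4 were called higher in TKO at 48 h (all covered tiles 9.85%) and 17 at 168 h (all covered tiles 11.9%, other methylated tiles 29.3%), with median differences of 10.7 and 38.5 points. Only 2 of the 479 tiles were at or below 0 in serum. At the level of single cytosines, 1667 positions in 406 chosen tiles had 10 or more calls in each of the 4 groups of 48 h and 168 h, with replicates summed. TKO was higher at 90.5% of them at 48 h and at 97.4% at 168 h, against 64.5% and 73.6% of 23267 positions in other methylated tiles. Among chosen tiles with 3 or more such positions, all positions were higher in TKO in 198 of 303 at 48 h and in 275 of 303 at 168 h, against 1071 and 1870 of 4326 other methylated tiles. The difference was thus seen at most positions read in a tile and not at single cytosines. Positions in a tile share reads, and these shares carry no test.

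Loss between 48 h and 168 h was called in 427 chosen tiles in WT (89.1%, against 17.8% of all covered tiles) and in 341 in TKO (71.2%, against 19.6%). In the other methylated tiles the same calls reached 73.6% in WT and 67.4% in TKO. The median change in the chosen tiles was -39.0 points in WT and -26.4 points in TKO, and in the others -33.0 and -25.3 points. These comparisons use the 48 h and 168 h libraries of the comparisons above. A direct test of whether the change differed between the lines called 8 chosen tiles (1.67%), all with the larger loss in WT. All covered tiles gave 0.191%, and the 2029 tiles methylated in TKO serum and low in WT serum gave 1.58%. Such calls were thus not particular to the chosen tiles. An unadjusted p under 0.05 was reached by 141 of 479 chosen tiles, 1270 of 6621 other methylated tiles and 4051 of all 39358. The loss in points was larger in WT in 390 of the 479 and in 4525 of the 6621. The call in TKO fell to between 176 and 215 tiles without either TKO 48 h library or without TKO 168 h replicate 1, and to 144 with limma on log2 ratios. With only the groups compared in the fit, 0 tiles were called for loss in either line. The 8 calls fell to 0 in 8 of the 14 fits without a single library.

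The tile with the largest difference at 96 h was chr7:139529001-139529500. The WT libraries read 69.8% and 82.8% in serum, 52.8% and 37.3% after 48 h, then 5.33% and 9.09% after 96 h, with 3.12% left after 168 h. The TKO libraries read 85.7% and 96.5% in serum, 100% and 86.3% after 48 h, then 81.8% and 74.1% after 96 h, with 60.2% and 67.3% left after 168 h. At 48 h and 168 h, which did not enter the choice, both TKO libraries lay above the WT libraries of that time. This held in 42.0% and 58.6% of all covered tiles (45.0% and 72.0% of other methylated tiles). The pooled difference was 48.0 points at 48 h (adjusted p = 0.0025) and 58.1 points at 168 h (adjusted p = 0.00025). Its reads covered 6 positions with enough calls, 3 neighbouring CpGs on both strands. At 96 h the highest of the 6 stood at 13.6% in WT and the lowest at 61.5% in TKO. The 96 h libraries chose and ranked this tile, so these values are a description only.

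The tile at chr5:74407501-74408000 had the lowest mean of all chosen tiles in WT at 48 h. WT serum libraries held 45.6% and 54.8%, those of 48 h held 11.5% and 7.27% and those of 96 h held 0% and 2.33%, while the library of 168 h had 0 of 36 calls methylated, which allows a level of up to 8.33% (3 counts, counting error only). TKO serum libraries held 96.7% and 93.3%, those of 48 h held 80.6% and 78.3%, those of 96 h held 57.4% and 70.6% and those of 168 h held 38.5% and 30.6%. Here the gap narrowed, from 70.3 points at 48 h (adjusted p = 7e-05) to 37.2 points at 168 h (adjusted p = 0.0016), but the test of the change itself made no call (-33.1 points, adjusted p = 0.081). The WT mean at 48 h was already 9.41%.

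**Figure D3:**
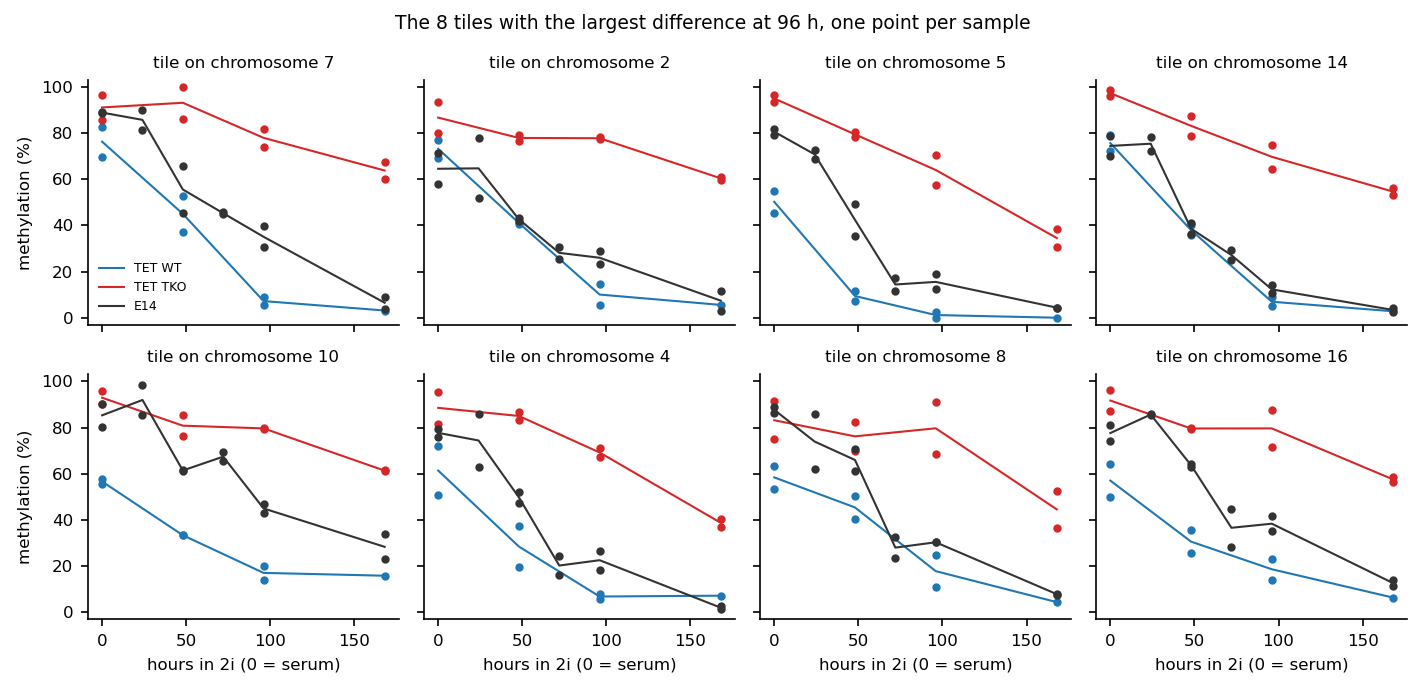
Methylation (%) by hours in 2i (serum at 0) of the 8 tiles with the largest difference at 96 h in TET WT, TET TKO and E14. Each point is 1 library and lines join group means. In all 8 tiles E14, which was not used to choose them, ended nearer to TET WT than to TET TKO at 168 h, between 1.95% and 28.3%.

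By the mean of replicates the difference at 168 h was largest at chr3:28493001-28493500 (67.7 points), where WT stood at 9.59% and TKO at 76.3% and 78.3% (67.3 points pooled, adjusted p = 0.00026). Its gap had been 22.0 points at 48 h, which was not called (adjusted p = 0.12). At chr10:61778001-61778500 WT fell from 78.0% and 70.9% at 48 h to 1.43% at 168 h, whereas TKO went from 77.3% and 91.9% to 74.6% and 57.4%. Its pooled difference at 168 h, 69.6 points, was above that of the tile on chromosome 3. This tile was among the 8 whose change differed between the lines (56.7 points, adjusted p = 0.024). At chr13:49970501-49971000 TKO kept 82.7% ± 6.24 at 168 h after 96.9% ± 2.36 in serum (n = 2), and the difference from WT was 59.0 points (adjusted p = 3.1e-05).

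The 4 tiles with the smallest difference at 168 h, by the mean of replicates, stand at the other end. The smallest was at chr6:28410001-28410500, where WT stood at 69.6% and TKO at 53.3% and 62.1%, a difference of -14.2 points that was not called (adjusted p = 0.39). It also lost little in E14, from 98.6% and 89.8% in serum to 83.9% and 61.9% at 168 h. At chr3:102448501-102449000, chr10:59784001-59784500 and chr14:56387501-56388000 the differences at 168 h were -0.456, 1.33 and 1.42 points by the mean of replicates and 8.16, 4.26 and 9.92 points pooled over calls. None was called, and each pooled value fell below 0 without TKO 168 h replicate 1, at -11.3, -2.67 and -11.6 points. The difference at 168 h went with that at 48 h only weakly over the 479 tiles (Spearman rho 0.24, a description over tiles of the same libraries).

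The chosen tiles lay apart from each other. Only 5 had a neighbour among them within 2000 bases, in a run of 3 at chr5:120673001-120676000 and a run of 2 at chr11:101332001-101333000, and 474 stood alone. They came from all 19 autosomes, between 4.36% (chromosome 17) and 11.3% (chromosome 16) of a chromosome's methylated tiles. RRBS covers short fragments with gaps, so unread neighbours were not seen. In the run on chromosome 5 the mean was 53.6% in WT and 82.9% in TKO at 48 h, and 15.8% and 50.2% at 168 h.

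E14, a wild-type line, took no part in the choice of the tiles. Of the chosen tiles 466 were covered in all 12 E14 libraries. Their median was 77.9% ± 0.247 in serum and 82.4% ± 0.687 after 24 h, then 64.7% ± 0.0561 after 48 h, 51.6% ± 0.127 after 72 h, 45.3% ± 0.331 after 96 h and lastly 20.5% ± 0.430 after 168 h (n = 2). The 6359 other methylated tiles covered there went from 86.0% ± 0.449 in serum to 67.1% ± 0.0417 at 96 h and 44.9% ± 0.358 at 168 h. At 168 h 462 of 466 chosen tiles were called lower than in serum (99.1%), where all 55777 tiles gave 38.8% and the other methylated tiles 88.2%. At 96 h it was 380 of 466 (81.5%), against 18.4% and 34.5%. The median change from serum to 168 h was -54.3 points in the chosen tiles and -38.1 points in the others. All 466 had both 168 h libraries below both serum libraries, as had 72.1% of all tiles and 99.2% of the other methylated tiles. Of 1960 covered tiles methylated in TET TKO serum and low in TET WT serum, 60.5% were called lower at 96 h and 92.4% at 168 h. Their pooled median change to 168 h was -39.0 points, against -54.1 in the chosen tiles. By 168 h they kept 21.2% of their E14 serum median, against 26.4% in the chosen tiles and 52.2% in the others.

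At 24 h the chosen tiles in E14 were not lower than in serum. The level at 24 h was above that in serum in 323 of 466, with a median change of 3.95 points, against 0.112 points in the other methylated tiles. The rise was not particular to the chosen tiles. In 1960 covered tiles that were at 50% or more in TKO serum but below 50% and at least 30 points lower in WT serum, the E14 median was 53.8% ± 0.176 in serum and 69.1% ± 2.40 after 24 h. The SD between the 2 libraries of 24 h was 0.687 points for the median, and this change was not tested.

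The chosen tiles had lower levels in E14 serum than the others, so tiles of like serum level were set side by side. Between 80% and 90% in E14 serum, 171 chosen tiles had a median of 25.4% at 168 h (quartiles 16.9% and 34.6%) and 2553 others 44.5% (36.1% and 53.1%). Between 60% and 70%, 78 chosen tiles had 13.7% and 518 others 29.7%. The chosen tiles lay lower in each of the 6 classes of serum level at 96 h and at 168 h, the lowest of which held only 6 of them. The same order was seen in TET WT at 168 h within classes of WT serum level, where tiles of 50% to 60% in serum stood at 10.5% (240 chosen) and 21.7% (1093 others). TET TKO had the opposite order in that class, at 46.5% and 42.0%. The values of TET WT and TKO share their serum libraries with the rule, while those of E14 do not.

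**Figure D4:**
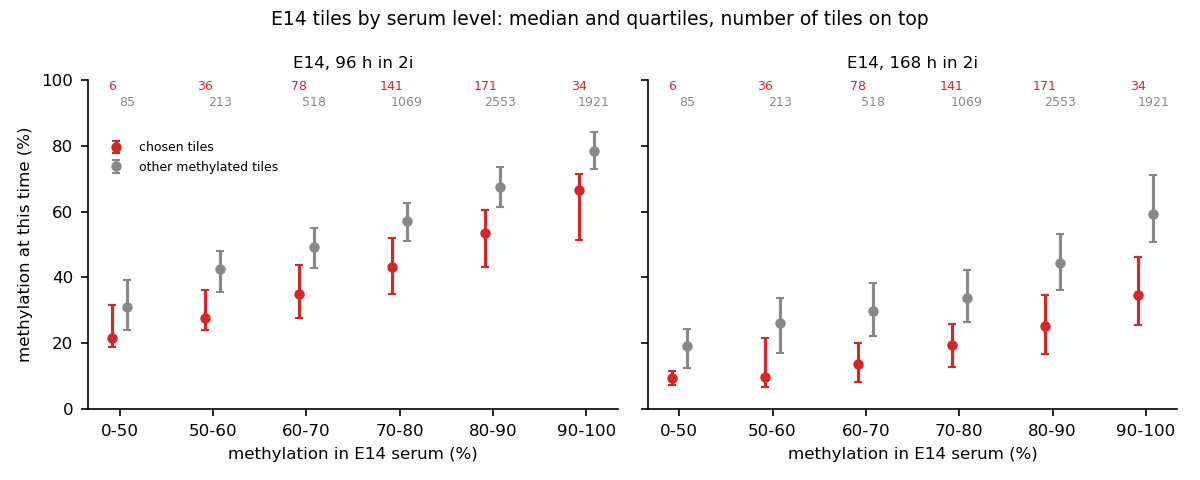
Median and quartiles of E14 methylation (%) at 96 h and 168 h by the tile's level in E14 serum (x axis, %), for chosen and other methylated tiles, with the number of tiles on top. At 168 h chosen tiles of 80% to 90% in serum stood at 25.4% and the others at 44.5%.

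Tiles differed in E14 as well. The largest losses were at chr7:139529001-139529500, from 88.7% and 89.1% in serum to 3.81% and 9.16% at 168 h (-81.2 points pooled, adjusted p = 1.6e-08), and at chr13:53779501-53780000 and chr8:60094001-60094500 (-81.8 and -80.1 points). The smallest was at chr2:17019501-17020000, which went from 73.6% and 74.7% to 66.7% and 65.3% (-8.49 points, adjusted p = 0.14, not called). At chr12:92992501-92993000 and chr3:59090001-59090500 the change was -16.1 and -17.0 points, under the minimum for a call. Over the 466 tiles a larger difference between TKO and WT at 168 h went with a larger loss in E14 (Spearman rho -0.26, a description over tiles that share libraries).

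In the UHRF1 lines 59 chosen tiles and 864 other methylated tiles were covered. The chosen tiles had a median of 95.8% in the lone UHRF1 WT serum library, 85.4% ± 0.875 after 48 h, 55.7% ± 2.87 after 96 h and 27.4% ± 1.18 after 168 h. The others stood at 95.8%, 88.4% ± 0.126, 71.0% ± 0.233 and 52.5% ± 1.79. In 377 covered tiles methylated in TET TKO serum and low in TET WT serum, UHRF1 WT went from 87.4% in serum to 17.7% ± 0.915 at 168 h. All 59 chosen tiles were called lower at 168 h than in serum, where all 22700 tiles gave 10.7% and the other methylated tiles 85.8%. The 377 tiles low in TET WT serum gave 97.1%. Their pooled median change was -62.4 points, against -67.0 in the chosen tiles. The serum group is 1 library, assumed to vary like the other groups, and with only the groups compared in the fit 30 of the 59 were called.

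In UHRF1 KO the chosen tiles started in serum from 89.6% ± 0.544 and had 70.1% ± 1.19 left after 24 h, 49.4% ± 0.786 after 48 h and 30.7% ± 0.362 after 96 h. The other methylated tiles stood at 89.5% ± 0.274, 73.5% ± 0.896, 58.2% ± 0.213 and 38.1% ± 0.884. At 96 h 39 of 59 chosen tiles were called lower in KO than in WT (66.1%), where all tiles gave 5.19% and the other methylated tiles 86.6%. The median difference was -23.6 points in the chosen tiles and -31.7 points in the others. This count depended on the libraries and the fit. It was 25 without UHRF1 WT 96 h replicate 1, 22 with the dispersion of each tile alone, and 0 with limma on log2 ratios or with only the groups compared in the fit.

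At 168 h the order in the UHRF1 lines had turned. KO was above WT in 53 of the 59 chosen tiles, with a median difference of 15.1 points, but in 273 of 864 others, with a median of -6.44 points. The turn was also seen in the 377 covered tiles that were methylated in TET TKO serum and low in TET WT serum, with 28.1% ± 0.657 in KO and 17.7% ± 0.915 in WT. In KO the median of the chosen tiles rose from 30.7% at 96 h to 42.1% ± 1.76 at 168 h, and 50 of 59 were higher at the later time. The others rose too, from 38.1% to 46.5% ± 0.168. These values were not tested.

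A tile covered in all lines was chr5:144350001-144350500. In E14 it went from 74.3% and 80.7% in serum to 12.2% and 6.32% at 168 h, and in TET WT from 47.2% and 57.0% to 5.31%. In TET TKO it went from 86.8% and 84.2% to 39.9% and 45.5%. UHRF1 WT had 91.7% in serum, 30% and 20.3% after 96 h and 21.8% and 6.90% after 168 h. UHRF1 KO had 20% and 27.6% after 48 h, then 13.95% and 6.74% after 96 h. The difference between KO and WT at 96 h was -15.0 points (adjusted p = 0.053). At chr9:67236001-67236500 and chr8:123598501-123599000 the same difference was -12.9 and -23.1 points (adjusted p = 0.36 and 0.0095).

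ChIP-BS of E14 reads the whole genome, so it shows the DNA around the tiles. Its 2i cells carry no time in the labels and are not a time point of the RRBS course. In the input fraction of 2i cells the chosen tiles averaged 27.6% and 25.3% in the replicates, over the 165 and 150 tiles with 5 or more calls, and the other methylated tiles 42.3% and 42.3%. In serum input the averages were 70.2% and 72.6% for the chosen tiles and 80.6% and 78.6% for the others. In H3K9me2-bound DNA of 2i cells the chosen tiles stood at 36.0% and 35.5% and the others at 51.0% and 52.2%. Fewer chosen tiles had 5 or more calls in this bound DNA than in 2i input, at 113 and 81. Replicates lay closer to each other than the 2 kinds of tile did in each of these comparisons.

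In 2i input the difference between the 2 kinds of tile was smaller away from the tile. Windows 5000 bases away on either side averaged 33.7% and 35.2% around the chosen tiles and 35.7% and 35.4% around the others. Between them and the chosen tiles the level varied, with 39.7% before and 34.8% after the tile at 1500 bases, 37.1% and 31.8% at 2000 bases and 38.6% and 38.4% at 1000 bases. The windows next to the tile had 34.6% and 32.0%, and the tile itself 26.4% (mean of replicates). The other methylated tiles showed no such dip, with 42.3% at the tile and 43.4% on both sides. The chosen tiles held as many read positions in ChIP-BS as the others, with a median of 13. The ratio of H3K9me2-bound to input calls in windows of 10 kb had a median of 0.800 and 0.823 around chosen tiles in serum (others 0.814 and 0.830) and of 0.393 and 0.350 in 2i (others 0.533 and 0.462). The quartiles of this ratio in 2i overlapped widely, from 0.183 to 0.883 and from 0.172 to 1.23 in replicate 1. No test was made on these shares.

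**Figure D5:**
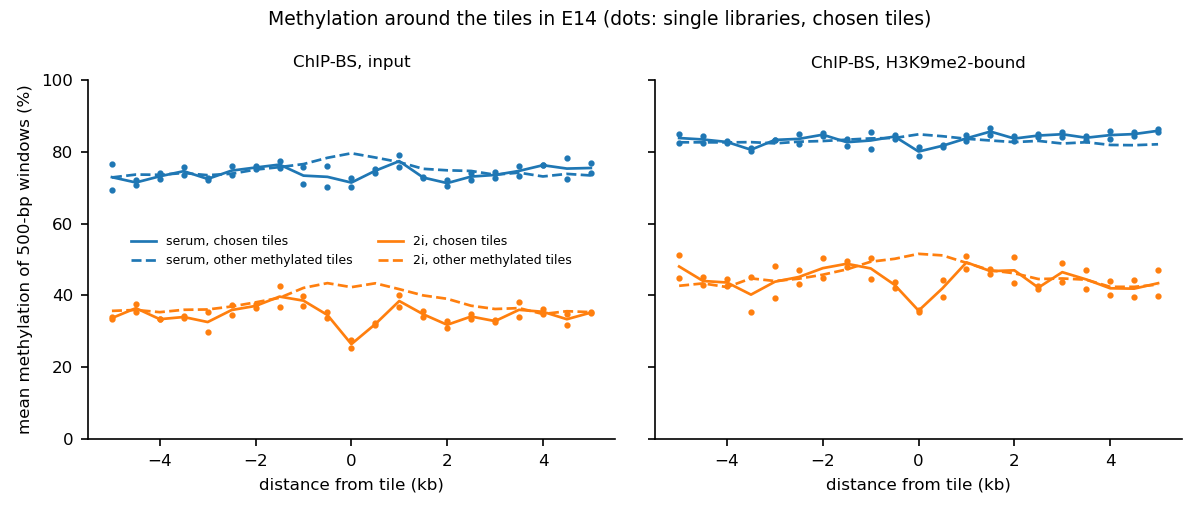
Mean methylation (%) of windows of 500 bases by distance from the tile (kb) in ChIP-BS input and H3K9me2-bound DNA of E14, in serum (blue) and 2i (orange), for chosen (solid) and other methylated tiles (dashed). Dots are single libraries for the chosen tiles. In 2i input the chosen tiles form a dip at 26.4%. The others stood at 42.3%, with 43.4% in the windows on both sides and 35.7% and 35.4% at 5000 bases.

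The TET libraries covered 2029 tiles of that kind, methylated in TKO serum and low in WT serum. In these the gap narrowed in points with time, from a median difference of 36.4 at 48 h to 28.3 at 168 h, whereas in the chosen tiles it widened from 24.3 to 37.0 (pooled differences). The 2 kinds were picked by gaps at different times, the 2029 tiles in serum and the chosen tiles at 96 h. WT stood at 26.3% ± 0.452 in the 2029 tiles at 48 h, which left few points to lose. The contrast in points is therefore a description only. The 2029 tiles ended at 5.32% in WT at 168 h and at 35.8% ± 0.565 in TKO. As a share of the serum level the 2 kinds of tile were closer, with 18.3% kept in WT and 48.6% in TKO here, and 21.1% and 57.4% in the chosen tiles (ratios of group medians).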

How the data were processed

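For each bisulfite library the authors deposited counts of methylated and unmethylated calls per cytosine position, made with Bismark on build NCBIM37. The submitters' processing notes name Trim Galore 0.3.5 and Bismark 0.12.3 for the series. Strands were kept as separate positions. Deposited percent values were not used, and neither were the RNA-seq and ChIP-seq tables of build GRCm38. UHRF1 WT serum replicate 2 was not used, since its deposited counts covered only 6 positions. Calls were summed in tiles of 500 bases with 20 or more calls and 3 or more positions in all libraries of a set. All libraries of a set entered a quasi-binomial fit (Python 3.11.15, numpy 2.4.6), and squeezeVar (limma 3.58.1, R 4.3.3) moderated the dispersions. Two-sided quasi-likelihood F tests were adjusted by Benjamini-Hochberg over all tiles of the set. A change that differed between lines was tested in points. The fit was tested on simulated data in which few tiles changed. It made few false calls and missed most changes put into the TET comparisons, so a tile without a call is not shown to be unchanged. Alternatives were other dispersions, limma on log2 ratios, other minimums, a replicate block and leaving out each library. Tiles, comparison groups and tests were chosen with earlier results of these data known. Tiles were named by rank: 8 by difference at 96 h, 4 at each end of the difference at 168 h, 3 at each end of the E14 change, 3 covered in all lines, 3 on each side of the threshold, and runs. Examples among the results flagged for a closer look were named outside these ranks. Tiles on chromosome 18 were counted but not named. Expression of overlapping genes was not analysed here.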

Additional observations from a re-analysis of the deposited data

Results flagged for a closer look

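In 8 chosen tiles the change from 48 h to 168 h differed between TET WT and TET TKO by a test of the difference itself (adjusted p under 0.05 over all tiles and 20 points or more, limma-moderated quasi-binomial fit). The same test was met by 24 of 6621 other methylated tiles and by 32 of 2029 tiles methylated in TKO serum and low in WT serum. The last share was 1.58%, against 1.67% of the chosen tiles. All 8 chosen tiles lost more in WT. At chr14:120547501-120548000, for example, WT fell by 45.2 points and TKO by 2.04 points, and at chr1:92231501-92232000 WT fell by 56.0 points and TKO by 16.1 points. The count was 0 with a replicate block and 0 with limma on log2 ratios, and it rests on the lone WT library of 168 h.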

How the results depend on the processing

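The number of chosen tiles moved with the rule. It was 1326 with 10 or more calls, 30 with 50 or more calls, 837 with 25 points at 96 h, 141 with 40 points and 239 with 60% in serum, and 475 to 626 without a single library. Membership moved too. Without a single 96 h library 372 to 408 of the 479 tiles stayed in the set, and without a single serum library 436 to 479. By the mean of position percents 538 tiles were chosen, which held 372 of the 479. Of the 30 tiles left with 50 or more calls, 21 were called higher in TKO at 48 h, 28 at 168 h, 26 lower from 48 h to 168 h in WT and 25 in TKO, and 1 for a change that differed. Of the 223 chosen tiles with 50 or more calls in all E14 libraries, 220 were called lower in E14 at 168 h and 178 at 96 h. Shares called over all tiles of this coverage were not counted, so these counts have no background. With 50 or more calls no chosen tile was left in the UHRF1 lines.

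With the dispersion of each tile alone the calls were 151 in TKO against WT at 48 h, 2 for a change that differed and 22 in UHRF1 KO against WT. With limma on log2 ratios they were 161 at 48 h, 277 at 168 h, 144 for late loss in TKO, 0 for a change that differed and 0 in UHRF1 KO. With only the groups compared they were 40 at 48 h, 0 at 168 h, 0 for late loss in WT, 0 in TKO, 0 for a change that differed, 30 in UHRF1 WT and 0 in UHRF1 KO. Such fits estimate dispersion from 3 or 4 libraries in most comparisons. The cause of the other shifts was not tested.

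Without single libraries, calls ran from 126 to 250 (TKO above WT, 48 h), 297 to 418 (168 h), 372 to 424 (late loss in WT), 176 to 341 (late loss in TKO), 0 to 6 (a change that differed), 458 to 462 (E14, 168 h), 347 to 380 (E14, 96 h), 59 to 59 (UHRF1 WT) and 25 to 39 (UHRF1 KO). Comparisons with WT at 168 h could not be fitted without its lone library. Without TKO 168 h replicate 1 the difference at 168 h reversed at 3 named tiles, to -11.3, -2.67 and -11.6 points, and without replicate 2 it was 10.4, 5.33 and 14.4 points.

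No sign of pairing by replicate number was seen, which does not show that the samples were unpaired. Deviations of same-numbered TET libraries correlated between -0.016 and 0.016. With a replicate block 223 tiles were called at 48 h, 410 at 168 h and 0 for a change that differed, and no other count moved by over 1.5 times. A dispersion trend over mean methylation, chosen after seeing the data, moved no count by over 1.5 times.

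As a mean of position percents, the median over tiles was 60.7% in TET WT serum, 54.6% in WT at 48 h and 50.0% in TKO at 168 h. In E14 it was 77.6% in serum and 81.6%, 64.9%, 52.2% and 45.3% at 24, 48, 72 and 96 h. In UHRF1 WT it was 89.7% at 24 h and 84.0% at 48 h, and in KO 71.1%, 49.5%, 40.4% and 29.8% at 24, 48, 72 and 96 h. Tiles with few calls (20 to 50) limit the precision of single values.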
